A study of Mus musculus with 24 samples.

Results

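The liver transcriptome of fed mice lacking p110α in hepatocytes (LKO, labelled p110aLKO_Fed) was compared with that of fed control mice (LWT, labelled p110aLWT_Fed), with 6 arrays in each group out of 24 in the series. All mice were males on a C57BL/6J background, killed at an age of 12 weeks, and both genotypes carried the floxed p110α allele on both chromosomes. LKO mice also carried 1 albumin-Cre transgene, whose promoter is active in hepatocytes. Recombination in other liver cells was not measured here. LWT mice were littermates without Cre. Fed mice ate ad libitum until ZT16, in the dark, active phase. The remaining 12 arrays came from LWT and LKO livers taken at ZT16 after 24 h without food. They shared the estimate of the spread and were used to ask whether a difference seen in fed livers differed in fasted ones.

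p110α, encoded by Pik3ca, is the catalytic subunit of a class I phosphoinositide 3-kinase. When insulin binds its receptor, insulin receptor substrates recruit this kinase, and the lipid it makes at the membrane activates AKT. In the fed liver AKT signalling raises SREBP-1c activity, which turns on genes of fatty acid synthesis, and keeps the transcription factor FOXO1 out of the nucleus, where it would activate genes of glucose output such as Pck1 and G6pc. The comparison asks which liver transcripts depend on p110α when insulin is present.

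Each array measured cyanine-3 labelled RNA from 1 liver with 60-base probes, and values are given as normalized log2 signal, so that a difference of 1 is a 2-fold difference. Differences are given as LKO minus LWT with their standard error (SE). A probe was called when the adjusted p was at most 0.05 and the fold difference was above 1.5. Between 54.7% and 63.0% of probes were well above background on each array, with medians of 58.2% in LWT fed and 59.0% in LKO fed livers. All 11 hepatocyte markers, such as Alb and Hnf4a, were well above background on every array. limma called none of them, with 2 higher and 1 lower at an unadjusted p under 0.05, where 13.9% of all annotated genes were higher and 18.2% lower. In LKO fasted livers, replicates 1 and 2, which were on slides 3 and 1, stood apart from the other 4. On 514 of the 32595 probes both exceeded all 4 others by more than 1.5-fold, and on 30 probes both lay that far below. These 514 are named split probes below. The definition was made after the data were seen and uses fasted arrays only. Leaving both arrays out gave 364 genes called higher and 220 called lower in fed livers.

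Of 16092 annotated genes, 360 were called higher in LKO fed livers (2.24%) and 223 were called lower (1.39%), 583 in all (3.62%). With the adjusted p alone 3103 passed (19.3%), 1411 higher (8.77%) and 1692 lower (10.5%), and 13.9% of genes were higher and 18.2% lower at an unadjusted p under 0.05. From Agilent's processed signal, scaled to the 75th percentile, 1082 genes were called, 723 higher and 359 lower. The median difference over all annotated genes was -0.024, and 56.3% of them lay below 0. These shares are the background for the counts of each gene list. Every array of one group lay beyond every array of the other for 281 of the genes called higher and for 150 of those called lower, against 7.62% of all annotated genes. On each of the 3 slides, which held 2 arrays of each group, the difference had the same sign for 351 of the 360 and for 221 of the 223. The increases differed from the decreases in the probes that carried them. Of the 360, 167 rested on split probes (46.4%), 77 on probes with a short tandem repeat of at least 12 bases (21.4%), and 198 on either. Among the 223 decreases there were 0 split probes and 2 repeat probes. The 162 increases on neither kind of probe are described with the gene groups, and the others at the end.

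The targeted gene itself was read by 1 probe, on chr3:32364747-32364806 (mm9, plus strand) that begins at base 6255 of the transcript. The position was read from the array files and was not checked against a genome of that build. By that position the probe appears to lie downstream of the floxed exons, and its signal was not used to check the deletion. Pik3ca signal was 11.71, 11.88 and 12.25 (lowest, median and highest) on LWT fed arrays and 12.3, 12.5 and 13.02 on LKO fed arrays. The groups did not overlap, and the knockout arrays were the higher ones. The difference was 0.58 (SE 0.10), 1.49-fold, with an adjusted p of 0.000542, just under the fold threshold. In fasted livers it was -0.02, and the 2 differences differed by 0.60 (adjusted p = 0.0181). The probe carries a 12-base AAG repeat. Over the 36 probes of the array with such a repeat the median fed difference was 0.42, with 3 called higher. The part of the repeat in the Pik3ca value was not tested.

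Genes of fatty acid synthesis were lower in LKO fed livers. Of 22 measured members of the lipogenesis list, 14 fell and none rose, against 1.39% of all genes called lower. All 22 lay below 0, against 56.3% of all genes, and the median difference was -0.81 against -0.024 over all annotated genes. With the adjusted p alone 19 were lower, against 10.5%. The list covers the SREBP-1c gene Srebf1, the enzymes that turn citrate into long-chain fatty acids, their NADPH supply, and genes that are switched with them. In bulk liver, fewer cells of a type and less RNA per cell cannot be told apart.

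The largest decreases of the whole comparison were a pair of neighbouring patatin-like phospholipase genes on chromosome 15. Pnpla5 signal was 11.41, 12.02 and 13.00 on LWT fed arrays and 7.37, 8.79 and 9.69 on LKO fed arrays. It fell by 3.29 on the log2 scale (SE 0.28), 9.78-fold, with an adjusted p of 2.29e-07. Pnpla3, which encodes a lipid droplet protein with acyl hydrolase activity, ran from 10.29 through 11.14 to 11.87 in LWT and from 6.63 through 8.25 to 8.54 in LKO. It fell by 3.03 (SE 0.28), 8.17-fold, with an adjusted p of 6.92e-07. No LKO array reached the lowest LWT array in either gene, and a second probe of each was called too, at -2.55 for Pnpla5 and -2.06 for Pnpla3. Pnpla5 has an E-box, CACGTG, in its RefSeq promoter. This palindrome is bound by factors of the basic helix-loop-helix class. It occurred in 3 of the 20 lipogenesis promoters in the table (Elovl5, Pnpla5 and Slc25a1), against 8.09% of the 27025 genes there and 10.75% of those on the array, and in 11.73% of genes called lower. Of the other motifs searched for this list, TCACNCCAC was in 0 of the 20 (1.45% on the array) and CCAAT in 13 (42.28%). The promoter, 250 bases before to 50 after the start at chr15:84123126-84123425 (GRCm38.p6, minus strand), is shown with the E-box in capitals, because this gene had the largest fall. A match is only a match of letters.
Pnpla5 promoter: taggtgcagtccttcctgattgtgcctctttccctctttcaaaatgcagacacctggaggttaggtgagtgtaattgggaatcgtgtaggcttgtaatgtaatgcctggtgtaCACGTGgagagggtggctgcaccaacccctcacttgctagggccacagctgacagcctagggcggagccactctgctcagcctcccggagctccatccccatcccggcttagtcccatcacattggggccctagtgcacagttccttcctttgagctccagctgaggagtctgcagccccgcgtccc

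Among the synthetic enzymes, Me1, the malic enzyme that supplies NADPH, fell most. Its signal was 14.53, 14.63 and 15.43 in LWT and 12.70, 13.15 and 13.41 in LKO, a decrease of 1.61 (SE 0.15, adjusted p = 4.21e-07). Elovl6, which extends palmitate to stearate, fell by 1.20 (SE 0.18) from 13.87, 14.41 and 15.26 to 12.98, 13.05 and 13.43. Scd1, the desaturase that makes oleate, fell by 1.1 (SE 0.14), and its arrays lay between 16.99 and 17.84 in LWT and between 16.08 and 16.74 in LKO. In these 3 genes every LKO array was below every LWT array.

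Fasn, the fatty acid synthase, was 17.33, 17.83 and 18.08 in LWT and 16.26, 16.74 and 16.88 in LKO, and fell by 1.03 (SE 0.13, 2.05-fold, adjusted p = 2.94e-05). Acly, which makes cytosolic acetyl-CoA from citrate, fell by 0.92 (SE 0.14), and Acss2, which makes it from acetate, by 0.82 (SE 0.11). Acacb, an acetyl-CoA carboxylase, fell by 0.75 (SE 0.20), while its partner Acaca, at -0.58 (SE 0.09, 1.49-fold), had an adjusted p of 0.000158 and missed the fold threshold. Thrsp, a lipogenic regulator, fell by 1.07 (SE 0.22), Gpam, which starts glycerolipid synthesis, by 0.93 (SE 0.15) and Elovl5, a fatty acid elongase, by 0.80 (SE 0.11). G6pdx, the first enzyme of the pentose phosphate pathway, fell by 0.84 (SE 0.17). Srebf1 itself fell by 0.62 (SE 0.12, adjusted p = 0.000851), from 15.68, 15.95 and 16.19 to 15.03, 15.30 and 15.55. Its call rested on a fold just past the threshold and ended without LKO fed replicate 4, at -0.58, and with Agilent's processed signal, at -0.53. The members that did not reach both thresholds were Acaca, Mid1ip1 (-0.53), Pgd (-0.51), Slc25a1 (-0.39), Tkt (-0.31), Aacs (-0.31), Fads2 (-0.20) and Fads1 (-0.04). The desaturases Fads1 and Fads2, which make polyunsaturated fatty acids, lay closest to 0. With all probes of a gene averaged, Acacb (-0.34) and Elovl5 (-0.58) lost their calls.

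**Figure D1:**
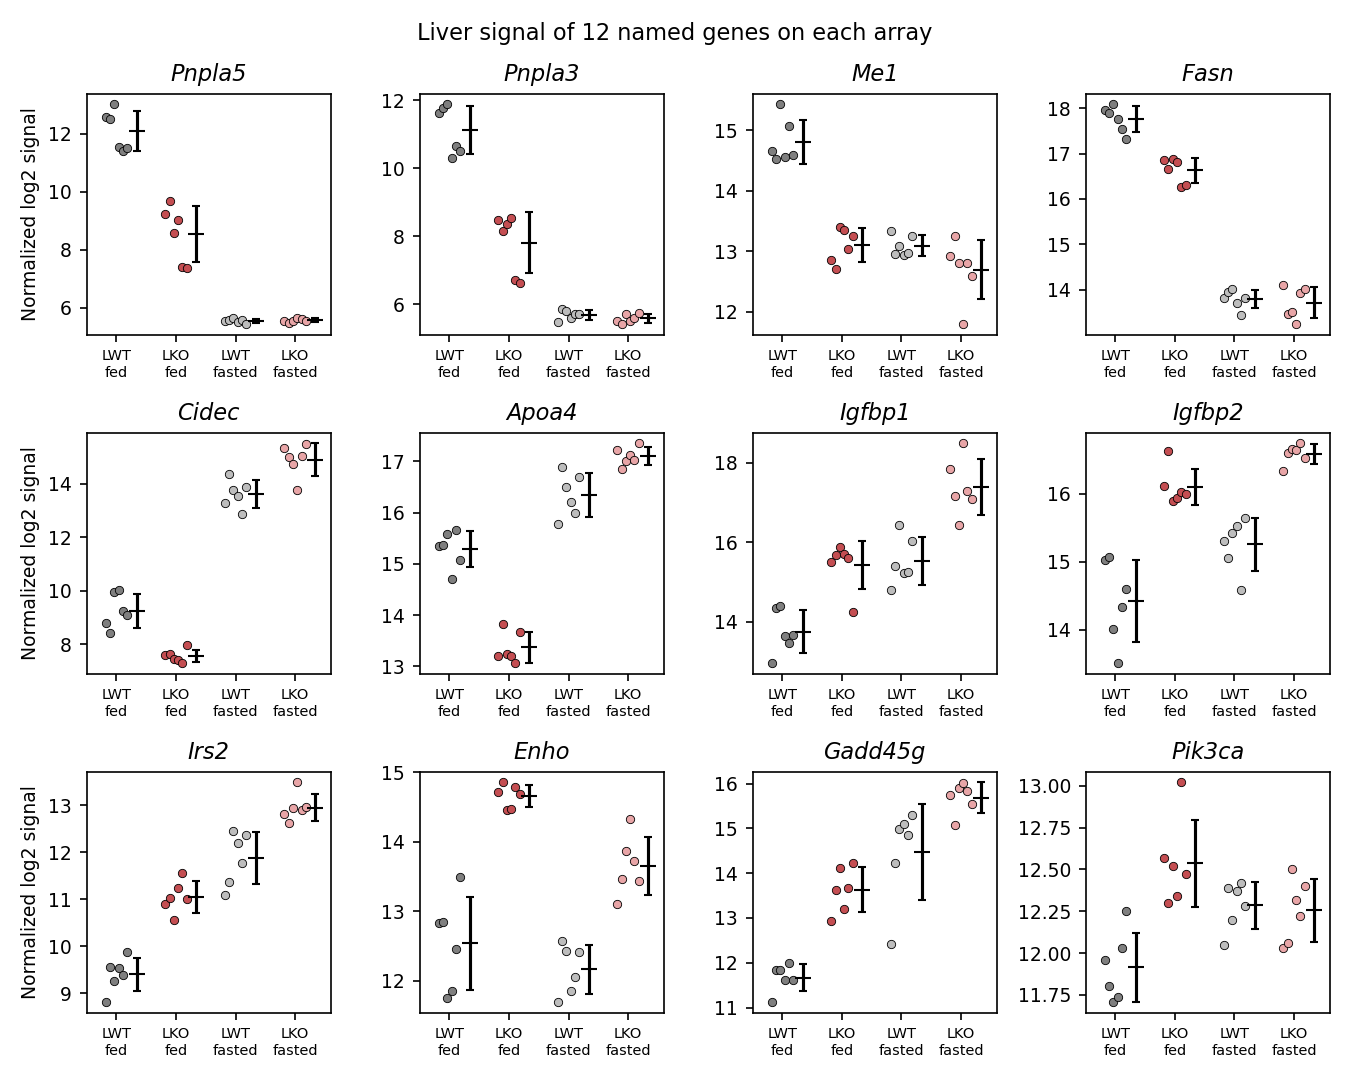
Normalized log2 signal of 12 named genes on each of 24 arrays, with points for single arrays and a bar for the mean ± SD (n = 6) of LWT fed, LKO fed, LWT fasted and LKO fasted livers. Vertical axes differ between panels and do not start at 0. Fed LKO arrays lie below all fed LWT arrays for Pnpla5, Pnpla3, Me1, Fasn, Cidec and Apoa4 and above them for Igfbp2, Irs2, Enho, Gadd45g and Pik3ca, while 1 LKO fed array overlaps for Igfbp1.

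Of 22 measured genes of lipid droplets and triglyceride storage, 6 fell and none rose, against 1.39% of all genes called lower. The median was -0.31, and 21 lay below 0, against 56.3%. Cidec, a droplet protein that enlarges droplets, was 8.41, 9.17 and 10.02 in LWT and 7.31, 7.54 and 7.96 in LKO, a fall of 1.63 (SE 0.23, adjusted p = 6.84e-05). G0s2, an inhibitor of the triglyceride lipase ATGL, fell by 1.53 (SE 0.27) from 12.73, 13.06 and 14.10 to 11.26, 11.71 and 12.24. Mogat1, a monoacylglycerol acyltransferase, fell by 1.27 (SE 0.19). For all 3 the groups did not overlap. Pparg, a nuclear receptor that drives fat storage genes, fell by 1.03 (SE 0.24), with arrays from 9.83 to 11.45 in LWT and from 9.13 to 10.20 in LKO, which overlap. Cidea (-0.92, adjusted p = 0.0470) and the droplet coat gene Plin4 (-0.64) were the other called members, and Cidea was well above background on 1 LKO fed array only. Plin2, the main coat protein of liver droplets, was at -0.55 (1.46-fold, adjusted p = 0.00223) and so not called.

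Of 21 lipoprotein and fat uptake genes, 3 fell and 1 was called higher, against 1.39% and 2.24% of all genes, with a median of 0.02. Apoa4, an apolipoprotein of triglyceride-rich particles, was 14.70, 15.36 and 15.66 in LWT and 13.07, 13.22 and 13.82 in LKO. It fell by 1.91 (SE 0.13, 3.76-fold), and its adjusted p of 3.47e-08 was smaller than those of Pnpla5 and Pnpla3. Pltp, the phospholipid transfer protein, fell by 1.66 (SE 0.26) and Cd36, a fatty acid carrier, by 1.19 (SE 0.30). Neither overlapped between the groups. Lpl was called higher at 0.61 (SE 0.20, adjusted p = 0.0339), but its groups overlapped, its value ran from 0.47 to 0.70 as single fed arrays were left out, and 5 of the 12 omissions ended the call (LKO replicates 1, 2 and 4 and LWT replicates 4 and 5). Apoc2 was at -0.52 (SE 0.06, adjusted p = 8.51e-06), below the fold threshold.

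Of 19 glycolysis and fructose genes, 2 fell, against 1.39% of all genes, and 11 were lower with the adjusted p alone, against 10.5%. The median was -0.22, and 18 lay below 0, against 56.3%. Pklr, liver pyruvate kinase, was 11.03, 11.33 and 12.32 in LWT and 9.93, 10.32 and 10.47 in LKO, a fall of 1.03 (SE 0.17). Khk, which phosphorylates fructose, fell by 0.70 (SE 0.08) from 16.96, 17.11 and 17.33 to 16.10, 16.34 and 16.57.

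The PPARα and fatty acid oxidation list, which holds genes the liver turns on when fasting, had 4 of 28 called lower, against 1.39% of all genes, and none higher. Its median was -0.14, and 25 lay below 0, against 56.3%. Fgf21, the fasting hormone, was 7.45, 7.92 and 8.38 in LWT and 6.13, 6.67 and 7.17 in LKO. It fell by 1.19 (SE 0.24, adjusted p = 0.00129), and the groups did not overlap. The only Fgf21 probe carries a 12-base repeat, whose part in the value was not tested. Acaa1b, a peroxisomal thiolase, fell by 0.73 (SE 0.15). The acyl-CoA thioesterases Acot2 (-0.75, adjusted p = 0.0456) and Acot4 (-0.65, adjusted p = 0.0251) were less secure. Leaving out 1 fed array ended the call in 7 of 12 cases for Acot2 (LKO replicates 1, 2 and 3, LWT replicates 1, 3, 4 and 5), with differences from -0.90 to -0.52. It did so in 4 cases for Acot4 (replicates 1 and 2 of LKO, 1 and 4 of LWT), with differences from -0.76 to -0.43. Among 22 cholesterol synthesis genes and 22 bile acid genes limma called none in either direction. At an unadjusted p under 0.05, 1 cholesterol gene was lower, and 2 bile acid genes were higher and 2 lower, below the shares over all genes (13.9% higher and 18.2% lower). The medians were 0.00 and -0.02.

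**Figure D2:**
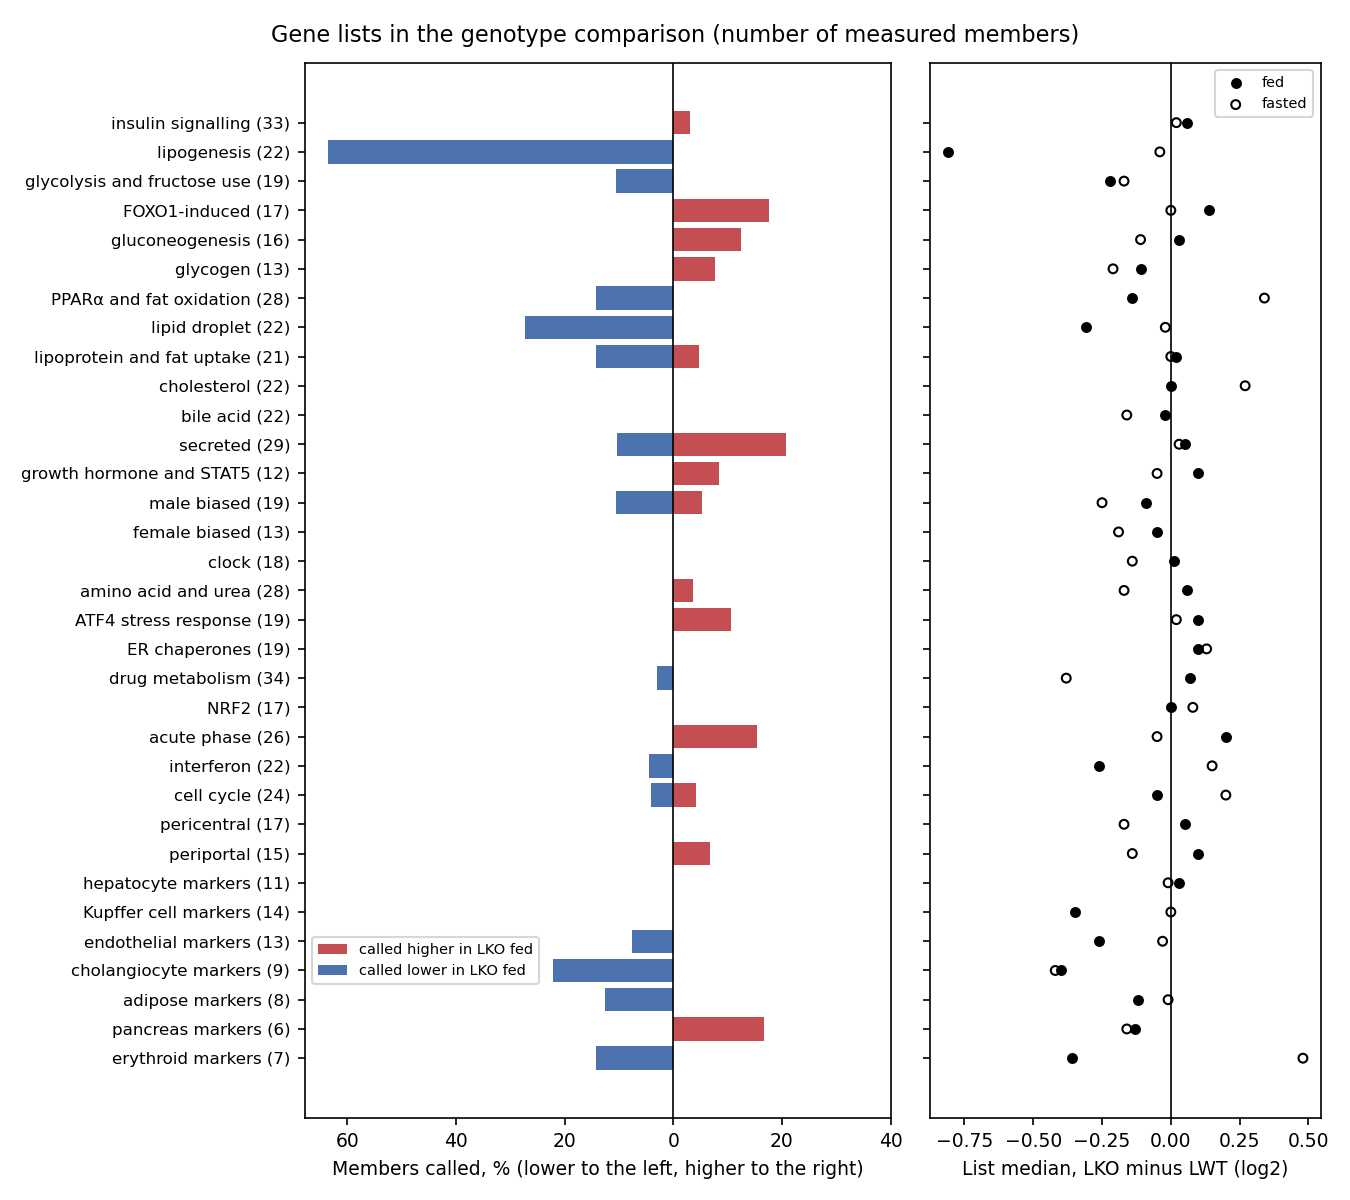
Gene lists in the genotype comparison, with the number of measured members in brackets. The left panel gives the percentage of members called lower (to the left) and higher (to the right) in LKO fed livers, and the right panel gives the median difference of each list in fed (filled) and fasted (open) livers. The lipogenesis list stands lowest in fed livers, with 14 of 22 members called lower and a median of -0.81, and in fasted livers its median is -0.04.

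Genes that FOXO1 is known to induce in the liver rose in part. Of 17 measured, 3 rose, against 2.24% of all genes, and none fell, with a median of 0.14. With the adjusted p alone 5 were higher and 1 was lower, against 8.77% and 10.5%. Igfbp1, which binds insulin-like growth factors in plasma, was 12.97, 13.66 and 14.40 in LWT and 14.24, 15.64 and 15.89 in LKO. It rose by 1.88 (SE 0.30, 3.69-fold, adjusted p = 0.000205). LKO replicate 6, at 14.24, lay within the LWT range, and the other 5 LKO arrays lay above it. Irs2, the insulin receptor substrate that FOXO1 induces, was 8.82, 9.46 and 9.87 in LWT and 10.56, 11.02 and 11.56 in LKO. It rose by 1.60 (SE 0.20, 3.04-fold, adjusted p = 2.60e-05) with no overlap.

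Pck1, the first committed enzyme of gluconeogenesis, rose by 0.81 (SE 0.19, adjusted p = 0.00464). Its arrays ran from 15.05 to 16.26 in LWT and from 15.90 to 17.08 in LKO and overlapped. Without LWT fed replicate 5, the lowest array, the difference was 0.55 and no longer passed the fold threshold. G6pc, which releases glucose, was at 0.58 (SE 0.15, 1.49-fold, adjusted p = 0.0119) and so not called. The other members gave no common shift, with Pdk4 at -0.51, Txnip at -0.34, Gadd45a at -0.33 and Bcl6 at -0.43, and with Sesn1, Klf15 and Trib1 at 0.14, 0.15 and 0.14. The Bcl6 value had an SE of 0.50, and its other probe was at 0.60. Mttp, which loads lipid onto apolipoprotein B, was at -0.28 with an adjusted p of 0.00149, opposite to the direction in the list's name.

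The RefSeq promoters of the FOXO1 list were searched on both strands for CAAAACA, a form of the FOXO recognition element. It was in 3 of the 14 list promoters in the table, those of Igfbp1, Irs2 and G6pc, against 7.2% of the 27025 genes there and 5.66% of the 12683 of them on the array. It was in 8 of the 119 promoters of genes called higher on neither split nor repeat probes (6.72%) and in 12 of the 179 of genes called lower (6.70%). The form GTAAACA was in 2 of the 14, Sesn1 and Txnip, against 4.05% of the genes in the table and 3.30% of those on the array. It was in 4.20% of the same genes called higher and in 6.15% of those called lower. The 3 promoters are shown because they hold the match, and Igfbp1 and Irs2 had the largest differences of the list. They lie at chr11:7197537-7197836 (plus strand), chr8:11008880-11009179 (minus strand) and chr11:101367466-101367765 (plus strand) in GRCm38.p6, with the match in capitals (TGTTTTG is the same site on the other strand). The matches begin 108, 37 and 174 bases before the start site.
Igfbp1 promoter: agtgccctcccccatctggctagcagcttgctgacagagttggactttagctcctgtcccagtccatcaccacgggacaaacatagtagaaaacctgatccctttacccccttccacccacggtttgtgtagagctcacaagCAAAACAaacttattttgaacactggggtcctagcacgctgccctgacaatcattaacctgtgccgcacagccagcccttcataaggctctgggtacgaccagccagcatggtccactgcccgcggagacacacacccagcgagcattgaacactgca
Irs2 promoter: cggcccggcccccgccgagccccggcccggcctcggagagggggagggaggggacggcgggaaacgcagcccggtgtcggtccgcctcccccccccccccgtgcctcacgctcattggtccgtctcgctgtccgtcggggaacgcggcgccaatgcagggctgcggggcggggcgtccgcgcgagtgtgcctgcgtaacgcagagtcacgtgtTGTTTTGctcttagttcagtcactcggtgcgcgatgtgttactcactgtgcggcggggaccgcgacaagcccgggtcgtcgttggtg
G6pc promoter: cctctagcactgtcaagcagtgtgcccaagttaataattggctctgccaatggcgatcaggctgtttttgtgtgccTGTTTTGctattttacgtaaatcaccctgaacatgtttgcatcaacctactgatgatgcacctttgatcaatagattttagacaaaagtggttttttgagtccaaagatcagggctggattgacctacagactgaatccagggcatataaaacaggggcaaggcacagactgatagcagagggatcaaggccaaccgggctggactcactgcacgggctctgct

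Among transcripts of the insulin signalling pathway 1 of 33 measured members, Irs2, was called, against 3.62% of all annotated genes, and the median was 0.06. With the adjusted p alone 4 were higher and 1 was lower, against 8.77% and 10.5%. The receptor gene Insr was at 0.30 (SE 0.08, adjusted p = 0.00978) and Irs1 at 0.22 (adjusted p = 0.146). Of the other catalytic subunits, Pik3cb was at -0.14 (SE 0.06), Pik3cd at 0.04 (SE 0.12) and Pik3cg at 0.29 (SE 0.17), none with an adjusted p under 0.1. Pik3cg was well above background on 2 LWT and 4 LKO fed arrays, and LKO replicate 3, at 7.07, lay far above the others. Of the regulatory subunits, Pik3r1 was at 0.10 and Pik3r2 at 0.06, while Pik3r3 was 7.57, 7.81 and 8.08 in LWT and 7.12, 7.24 and 7.56 in LKO. That is a difference of -0.54 (SE 0.12, 1.45-fold, adjusted p = 0.00229), with no overlap but below the fold threshold. Trib3, an AKT-binding pseudokinase, was at 0.56 (SE 0.15, adjusted p = 0.0122). Akt1, Akt2, Pdpk1, Foxo1, Mtor and Gsk3b lay between -0.08 and 0.17.

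Of 16 gluconeogenesis genes, 2 rose, Pck1 and Got1, against 2.24% of all genes, and the median was 0.03. Got1, a cytosolic aspartate aminotransferase, was at 0.60 (SE 0.18, adjusted p = 0.0225), and 5 of the 12 omissions of a fed array ended its call (LKO replicates 3 and 6, LWT replicates 1, 4 and 5), with differences from 0.47 to 0.71. Of 13 glycogen genes 5 were lower with the adjusted p alone, against 10.5% of all genes. The 1 called, against 3.62%, was higher, the glycogen-targeting phosphatase subunit Ppp1r3g at 0.94 (SE 0.31, adjusted p = 0.0367). Its groups overlapped, and 6 omissions ended the call (replicates 3, 4 and 5 of LKO, 1, 2 and 6 of LWT), with differences from 0.67 to 1.16.

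Among genes of secreted liver proteins 6 of 29 rose and 3 fell, against 2.24% and 1.39% of all genes, with a median of 0.05. Enho, which encodes the peptide adropin, was 11.75, 12.65 and 13.49 in LWT and 14.46, 14.70 and 14.85 in LKO. It rose by 2.03 (SE 0.20, 4.08-fold, adjusted p = 1.55e-06), and a second probe gave 2.07. Igfbp2, another binder of insulin-like growth factors, was 13.51, 14.46 and 15.07 in LWT and 15.89, 16.01 and 16.63 in LKO, and rose by 1.64 (SE 0.19, adjusted p = 1.01e-05). Both genes separated the groups completely. The other called increases were Igfbp1, Fgl1, a hepatocyte-secreted immune ligand, at 1.24 (SE 0.17), Fst, the activin-binding follistatin, at 1.1 (SE 0.19), and Lepr, the leptin receptor, at 0.81 (SE 0.16). The called decreases were Fgf21, Angptl8 and Inhbe. Angptl8, an insulin-induced inhibitor of lipoprotein lipase, fell by 1.45 (SE 0.21, adjusted p = 9.01e-05), with arrays from 14.36 to 16.42 in LWT and from 13.31 to 14.67 in LKO that overlapped. Inhbe, an activin subunit made in hepatocytes, fell by 0.81 (SE 0.21).

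Acute phase and metal-response genes had 4 of 26 called higher, against 2.24% of all genes, and a median of 0.20, and none of the 4 calls separated the groups. The metallothionein gene Mt2 was 9.98, 10.43 and 13.67 in LWT and 10.30, 13.08 and 13.43 in LKO, a difference of 2.04 (SE 0.41, adjusted p = 0.00125). LWT fed replicate 3, at 13.67, was the highest of all 12, and it carried the lowest array weight of the series (0.317). With equal weights Mt2 was at 1.55 (adjusted p = 0.0603) and Mt1, at 1.23 (SE 0.28) with weights, was at 0.92 (adjusted p = 0.0773). Orm3 (0.69) and Socs3 (0.62) lost their calls when 1 fed array was left out in 5 and in 9 of 12 cases, with differences from 0.45 to 0.83 and from 0.52 to 0.73. For Orm3 these were LKO replicates 1 and 2 and LWT replicates 1, 4 and 5, and for Socs3 all fed arrays but LKO replicates 2 and 3 and LWT replicate 6.

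Among genes that differ between the sexes, the male-biased hydroxylases Cyp4a12a and Cyp4a12b fell by 1.26 (SE 0.17) and 1.23 (SE 0.16). Cyp4a12a was 13.88, 14.48 and 14.78 in LWT and 12.48, 13.08 and 13.50 in LKO, with no overlap, and the near-identical pair may share signal. Susd4 was at 0.64 (SE 0.19), a call that ended without LKO fed replicate 4 (0.61, adjusted p = 0.0548) or LWT fed replicate 5 (0.58). Of 19 male-biased genes these 3 were called, against 3.62% of all genes, 13 lay below 0, against 56.3%, and the median was -0.09. limma called none of 13 female-biased genes, 18 clock genes, 19 endoplasmic reticulum chaperones, 17 NRF2 targets or 17 pericentral genes. At an unadjusted p under 0.05 these lists had 1, 2, 5, 1 and 2 members higher and 2, 1, 0, 2 and 3 lower, where 13.9% of all genes were higher and 18.2% lower. Socs3 was the 1 call among 12 growth hormone and STAT5 genes, Got1 among 28 amino acid genes and Pck1 among 15 periportal genes, against 3.62% of all genes. Of 19 ATF4 genes 2 were called higher, against 2.24% of all genes, Phgdh of serine synthesis at 1.01 (SE 0.20) and Ddit3 at 1.31 on a split probe, whose other probe was at -0.11. The Phgdh probe, the only one of its gene, was not split by the definition. On LKO fasted arrays it was nonetheless highest on replicates 1 and 2 (7.58 and 7.67), against 6.10 to 7.05 on the others. Of 34 drug metabolism genes Cyp2c55 was called, against 3.62% of all genes, at -0.97 (SE 0.16). Of 22 interferon genes 21 lay below 0, against 56.3% of all genes, with a median of -0.26. With the adjusted p alone 8 were lower, against 10.5%, and 10 at an unadjusted p under 0.05, against 18.2%. Of the 22, Rsad2 alone was called, against 1.39% of all genes called lower, at -0.65 (SE 0.15). That call ended without LKO or LWT fed replicate 1 (-0.53 and -0.56).

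Gadd45g, a growth arrest gene, was 11.13, 11.72 and 12.00 in LWT and 12.94, 13.65 and 14.22 in LKO, and rose by 1.95 (SE 0.30, 3.87-fold, adjusted p = 0.000152) with no overlap. It was the 1 member called higher of 24 cell cycle genes, and Cdkn1a, which encodes the inhibitor p21, was the 1 called lower, at -0.85 with an adjusted p of 0.0495. Over all genes 2.24% were called higher and 1.39% lower. Of the 12 omissions 10 ended the Cdkn1a call, at differences from -1.14 to -0.63, the exceptions being those of LKO replicate 6 and LWT replicate 5.

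Markers of cells other than hepatocytes lay below 0 in several lists, and their part in the results was not tested. Over all annotated genes 56.3% were below 0. Of 14 Kupffer cell markers 12 were, with a median of -0.35. limma called none, and 3 were lower at an unadjusted p under 0.05, where 18.2% of all genes were. Their summed linear signal was 62221 to 81036 on LWT fed and 46451 to 76183 on LKO fed arrays. Of 13 endothelial markers 11 were below 0, with a median of -0.26. Lyve1 was the 1 called, where 1.39% of all genes were called lower, at -0.88. That call ended without LKO replicate 4 (-0.77), LKO replicate 6 (-0.69) or LWT replicate 6 (-0.75). With the adjusted p alone 3 endothelial markers were lower, against 10.5%, and 6 at an unadjusted p under 0.05, against 18.2%. The sums were 35085 to 41932 and 26808 to 42895. Of 9 cholangiocyte markers 2 fell, against 1.39% of all genes, and 5 were lower with the adjusted p alone, against 10.5%. Their median was -0.40, and 8 were below 0. Spp1, which bile duct cells and other liver cells secrete, fell by 1.5 (SE 0.22) from 10.63, 10.85 and 11.45 to 8.75, 9.17 and 10.44. Anxa13 fell by 0.78 (SE 0.08), Krt19 was at -0.56 (adjusted p = 0.0113), Sox9 at -0.17 and Pkhd1 at -0.07. The cholangiocyte sums, at 2626 to 3899 in LWT and 1182 to 2349 in LKO, did not overlap, but this rested on Spp1. Without it, a choice made after the values were seen, they were 880 to 1097 and 738 to 960 and overlapped. All 7 erythroid markers were below 0, 1 of them at an unadjusted p under 0.05, with a median of -0.36 and sums of 251965 to 503412 and 212513 to 767232. The 1 called, where 1.39% of all genes were called lower, was Alas2, a heme synthesis gene of erythroid cells, at -0.80 (SE 0.15). The 13 stellate and 12 lymphoid markers had medians of 0.00 and -0.02, and limma called none, with 0 at an unadjusted p under 0.05. Of 6 pancreatic markers 4 were below 0, with a median of -0.13. Cela2a was called, at 0.83 (SE 0.16), where 2.24% of all genes were called higher, and with the adjusted p alone Ctrb1 (-0.35) and Cela1 (-0.32) were lower.

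Further large decreases fell outside these pathways. Dct, dopachrome tautomerase of pigment cells, was 10.93, 11.30 and 12.32 in LWT and 7.47, 8.19 and 9.92 in LKO. It fell by 3.02 (SE 0.37, adjusted p = 2.05e-05). A second Dct probe was at 0.18 and not called. Cfd, which encodes the complement protease adipsin made by fat cells, was 6.71, 8.89 and 9.79 in LWT and 5.57, 5.81 and 6.14 in LKO. It fell by 2.77 (SE 0.67, adjusted p = 0.00571), although it was well above background on only 3 LKO fed arrays, and its second probe fell too, by 2.02. Of 8 adipocyte markers 7 lay below 0, against 56.3% of all genes, and Cfd was the 1 called, against 3.62%. Fabp4 was also lower (-0.45) and Adrb3 higher (0.51) with the adjusted p alone. Adipoq was at -0.08, well above background on 2 arrays of each fed group, and Plin1 was at -0.04. The summed adipocyte markers were 3086 to 3861 in LWT and 2709 to 3385 in LKO, and 2412 to 3419 and 2661 to 3323 without Cfd.

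BC049987 fell by 2.43 (SE 0.45), with LKO fed arrays spread from 6.30 to 10.36 below LWT arrays at 10.60 to 11.89. Wfdc2, a secreted protease inhibitor of epithelia, fell by 2.11 (SE 0.23) and Aqp8, a water channel of the hepatocyte canaliculus, by 1.91 (SE 0.24). Aqp8 was 14.78, 15.48 and 15.62 in LWT and 12.90, 13.34 and 14.21 in LKO. Fitm1, which supports fat storage in droplets, fell by 1.87 (SE 0.21), the lymphoid DNA polymerase gene Dntt by 1.85 (SE 0.16), and the uncharacterised Gm30692 by 1.87 (SE 0.21). Clstn3 fell by 1.79 (SE 0.24) on 1 probe, while its other probe was at -0.27. The rule that chose the 12 largest decreases asked for groups that do not overlap.

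Of the 12 largest increases among genes whose groups did not overlap, 11 were on split probes and Enho was not. Mme, the membrane metalloprotease neprilysin, was 14.02, 14.48 and 14.64 on LWT fed and 16.64, 17.17 and 17.28 on LKO fed arrays, a difference of 2.61 (SE 0.34, 6.10-fold). On LKO fasted arrays it had a median of 14.61 and a highest value of 17.43. The 3 other Mme probes were between -0.38 and 0.31 and none was called, and over the mean of all 4 probes the difference was 0.56. Oxsm, an enzyme of mitochondrial fatty acid synthesis, was at 2.55 (SE 0.32), while its 2 other probes were at -0.29 and -0.14. Pign, of glycolipid anchor synthesis, was at 2.01 (SE 0.39), and its 2 others at -0.06 and 0.07. In these 3 genes the probe that stood for the gene was called and no other probe was.

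The rest of these increases were on genes with 1 probe each, most of them predicted or little characterised. Gm20736 was at 2.95 (SE 0.44), with 5.40, 5.60 and 6.55 on LWT fed and 8.30, 8.79 and 9.02 on LKO fed arrays, BC061237 at 2.00 and Gm35147 at 1.99. Gm20736 and BC061237 were well above background on 1 LWT fed array each, so their differences rest on LWT values close to background. For 5 others no LWT fed array was well above background, so only a bound can be given. It was at least 6.72-fold for Gm21996, 4.56-fold for Gm10375, 4.37-fold for Gm3264, 3.92-fold for 4930557B15Rik and 3.66-fold for Pramel48. Among called genes with further probes, another probe of the same gene was called the same way in 5 of 67 increases on split or repeat probes, in 17 of 57 increases on neither, and in 45 of 80 decreases.

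Among increases on probes of neither kind whose groups did not overlap, a list made after the values were seen, the largest were Enho, B930025P03Rik, Gadd45g, Dio3os, Igfbp2 and Irs2. Mt2 (2.04) and Igfbp1 (1.88) were left out of it because their groups overlapped. B930025P03Rik, a noncoding transcript at chr8:10870464-10870523 (mm9, minus strand), near Irs2 at chr8:11004490-11004549, was 5.38, 5.91 and 6.32 in LWT and 6.87, 7.86 and 9.52 in LKO, a rise of 1.96 (SE 0.35) with 4 LWT arrays well above background. Dio3os, antisense to the thyroid hormone deiodinase gene Dio3, rose by 1.76 (SE 0.21). Tuba8, an alpha-tubulin, rose by 1.54 (SE 0.15, adjusted p = 1.43e-06) from 8.44, 9.01 and 9.38 to 9.97, 10.50 and 10.97. Gpcpd1, a glycerophosphocholine phosphodiesterase, rose by 1.36 (SE 0.18), and 1 of its 3 other probes was called too. Tango6, at 1.38 (SE 0.19), had a second probe at 0.01.

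The increases were spread unevenly over probe sequences. Of all 32595 probes 1055 were called (3.24%), and 554 carried a repeat of at least 12 bases with a unit of 1 to 4 bases (1.70%), against 16.1% of the 696 probes called higher and 0.836% of the 359 called lower. The counts differed by the strand of the repeat. Of 62 probes with a CA run 50 were called higher (80.6%) and 53 were split, with a median difference of 1.15. Of 110 probes with a GT run, the complementary sequence, 1 was called higher (0.909%), with a median of 0.0685. GA runs had 16 of 28 called higher (57.1%) and CT runs 0 of 19, and 14 of 21 probes with GGA runs were higher (66.7%). All probes had 2.14% called higher. The share rose with the length of the CA run, from 1.91% at 3 bases or fewer, 1.87% at 4 to 5 and 2.65% at 6 to 7, through 10.2% at 8 to 9 and 12 of 30 probes at 10 to 11, to 81.0% of the 63 probes at 12 or more. No cause was tested.

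The probe sequences below are from the array files, with mm9 coordinates and with the repeat in capitals, and show 3 CA runs, 1 GGA run and 2 GT runs among probes named only by a chromosome region. The first, at chr11:60731875-60731934, was 9.05, 9.5 and 9.77 on LWT fed and 10.78, 11.11 and 11.38 on LKO fed arrays (difference 1.69). The second, at chr8:59966948-59967007, differed by 1.36, the third, at chr1:74115646-74115705, by 1.33, and the GGA probe, at chr1:78591616-78591675, by 1.49. The GT probes, at chr17:71267639-71267698 and chr6:92040785-92040844, differed by 0.17 (SE 0.18) and 0.00 (SE 0.20). The first 4 were called and split, and the GT probes were neither.
chr11:60728207-60745369_R: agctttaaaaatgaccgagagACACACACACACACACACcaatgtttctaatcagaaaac
chr8:59966759-59989065_R: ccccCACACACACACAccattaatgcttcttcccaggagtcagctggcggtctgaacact
chr1:74084292-74138492_F: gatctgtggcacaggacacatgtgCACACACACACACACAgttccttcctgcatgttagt
chr1:78591605-78606083_R: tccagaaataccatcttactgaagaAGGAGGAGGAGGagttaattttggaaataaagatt
chr17:71242333-71273533_F: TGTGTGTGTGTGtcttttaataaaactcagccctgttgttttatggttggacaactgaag
chr6:92040526-92041319_F: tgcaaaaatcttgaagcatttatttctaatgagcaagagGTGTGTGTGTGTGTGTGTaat

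Array by array, the median of the 62 CA-run probes relative to the LWT fed mean was 0.94 to 1.41 on LKO fed and -0.32 to 0.18 on LWT fed arrays. In LKO fasted livers it was 1.48 and 1.81 on replicates 1 and 2 and below 0 on the other 4. In LWT fasted livers it was -0.64 to -0.11. GT-run probes lay at 0.44 to 1.21 on LWT fasted arrays, at -0.40 to 0.31 on LKO fed arrays, and on LKO fasted arrays at 0.26 and -0.15 for replicates 1 and 2 and at 0.35 to 1.07 for the other 4. Of the 514 split probes 512 had a fed difference above 0, and 372 were called higher in LKO fed livers (72.4%). The 6 LKO fed arrays, 2 on each slide, and LKO fasted replicates 1 and 2 were high on these probes. On the 282 probes called higher that were neither split nor repeat, the medians were 0.58 to 0.79 on LKO fed and 0.27 to 0.85 on LKO fasted arrays, with replicates 1 and 2 again highest.

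**Figure D3:**
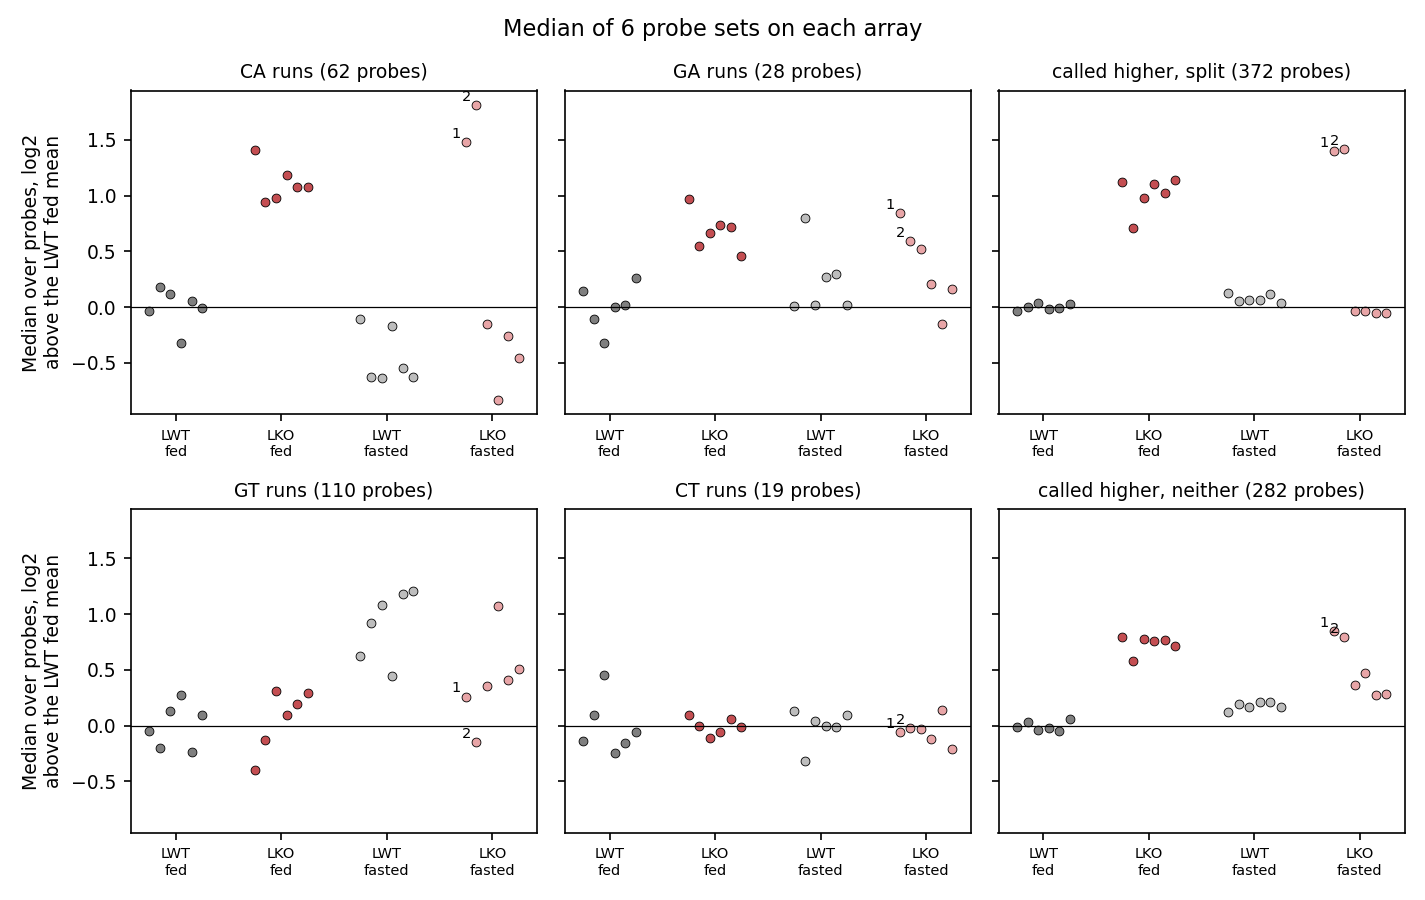
Median over the probes of 6 sets on each of 24 arrays, in log2 units above the mean of LWT fed arrays, for probes with CA, GA, GT and CT runs and for probes called higher in LKO fed livers that were split or were neither split nor repeat. Digits mark replicates 1 and 2 of LKO fasted livers, which lie with the LKO fed arrays for CA runs (1.48 and 1.81) and for split probes, while the other 4 lie at or below 0 in both sets. For split probes the gap between these 2 arrays and the other 4 follows from the definition of the set.

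Of 5730 probes without a matched gene 265 were called (4.62%), 223 higher (3.89%) and 42 lower. Among the 2129 probes named only by a chromosome region 85 were called higher and 16 lower (4.74%). Of the 85, 64 were split or repeat probes, as was 1 of the 16. Among the 3601 other probes 164 were called (4.55%), 138 higher and 26 lower, and 103 of the 138 were split or repeat probes. Without split and repeat probes 97 of the 265 remained.

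The 2 largest differences of the array were in this set. The probe of region chr5:14943275-14944205_F was 6.16, 6.34 and 6.40 on LWT fed and 9.63, 11.84 and 12.47 on LKO fed arrays, a difference of 5.07 (SE 0.85, adjusted p = 0.000284). The probe of chr5:15146475-15170100_F was 5.62, 6.09 and 6.35 and 9.01, 11.49 and 12.20, a difference of 4.98 (SE 0.83). Both are split probes, at 11.81 and 12.77 and at 11.43 and 12.38 on LKO fasted replicates 1 and 2, against 5.14 to 5.63 on the other 4 LKO fasted arrays. LWT fasted arrays lay between, at 7.32 to 8.64. The pair is shown because it led the comparison. The probes share 11 identical positions and no run longer than 5 bases, so they are different sequences that moved alike. A probe named for an expressed sequence tag followed at 4.18 (SE 0.65), also split. Of the decreases, the probe of chr10:92547995-92556102_F was 8.93, 9.78 and 10.51 in LWT and 6.51, 7.61 and 8.27 in LKO and fell by 2.08 (SE 0.33). B230114P17Rik fell by 1.94 (SE 0.20) and Gm35716 by 1.73 (SE 0.16), and none of these was split.
chr5:14943275-14944205_F: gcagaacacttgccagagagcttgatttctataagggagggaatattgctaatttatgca
chr5:15146475-15170100_F: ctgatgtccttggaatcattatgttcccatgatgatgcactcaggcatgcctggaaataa
chr10:92547995-92556102_F: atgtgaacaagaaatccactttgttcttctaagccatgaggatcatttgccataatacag

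The fed difference was then set beside the difference between the genotypes in fasted livers, where 743 genes were called (4.62%), 326 higher (2.03%) and 417 lower (2.59%). The fasted comparison shares no arrays with the fed one, but it includes LKO replicates 1 and 2. Of the 223 genes lower in fed LKO livers, 92 were lower and 15 were higher there. Of the 162 higher on neither split nor repeat probes, 52 were higher and 1 was lower. The test of the difference between the 2 states passed the adjusted p for 1741 of all annotated genes (10.8%) and for 151 of the 583 called in fed livers (25.9%), genes that were chosen on the fed arrays of the same contrast. In the PPARα and oxidation list 16 of 28 members passed it, with medians of -0.14 in fed and 0.34 in fasted livers, and in the lipogenesis list 12 of 22, which include Pnpla5 and Pnpla3 with fasted signal near background.

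The lipid genes divided by feeding state. Apoa4 fell by 1.91 in fed and rose by 0.80 in fasted LKO livers, and the differences differed by -2.71 (adjusted p = 9.82e-08). Fasted arrays were 15.77, 16.35 and 16.89 in LWT and 16.86, 17.07 and 17.35 in LKO. Cidec fell by 1.63 and rose by 1.49 (difference of differences -3.12, adjusted p = 1.53e-05). Elovl6 fell by 1.20 and rose by 1.25 (-2.45, adjusted p = 1.51e-05), and Elovl5 fell by 0.80 and rose by 0.70 (-1.50, adjusted p = 1.79e-05). Fgf21, read by a repeat probe, fell by 1.19 and rose by 0.85 (-2.04, adjusted p = 0.00109). These 5 genes, and Acot2 and Acaa1b (1.95 and 0.60 in fasted livers), were called with opposite signs in the 2 states.

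Other lipogenic genes fell in fed livers and were close to equal in fasted ones. Fasn was at -0.03 in fasted livers (13.25 to 14.11 in LKO, 13.45 to 14.02 in LWT), and the states differed by -1.0 (adjusted p = 0.00297). Me1 was at -0.29 (-1.32, adjusted p = 0.000651) and Gpam at 0.11 (-1.04, adjusted p = 0.00594). Pnpla5 and Pnpla3 were at -0.03 and -0.13, but fasted signal was not well above background on any array for Pnpla5 and on only 1 of 12 for Pnpla3, so the fasted value is no measure there. Thrsp went the other way, with a larger fall in fasted (-3.11) than in fed (-1.07) livers, a difference of 2.04 (adjusted p = 0.000444). Scd1 (-0.84), Acss2 (-0.80) and Srebf1 (-0.68) fell in fasted livers as well, and no difference between states passed the test for them (adjusted p 0.469, 0.968 and 0.870).

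Several secreted and FOXO1-induced genes were higher in both states. In fasted livers Igfbp1 was higher by 1.64, Igfbp2 by 1.25, Enho by 1.43, Irs2 by 0.91, Fgl1 by 1.28 and Fst by 1.26, each called. For Igfbp1, Igfbp2, Enho and Irs2 the adjusted p of the difference between states was 0.781, 0.422, 0.227 and 0.158. Pck1 was at 0.00 in fasted livers (adjusted p of the difference 0.0755). Dct (-3.09), Cfd (-2.98) and Spp1 (-2.11) were also lower in fasted LKO livers. In LWT livers, fasting itself moved Fasn by -3.94, Irs2 by 2.61 and Igfbp1 by 1.98. It moved Cidec by 4.35, Fgf21 by 3.17 and Apoa4 by 1.05. These values share the LWT fed arrays with the fed comparison and are given only beside it.

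**Figure D4:**
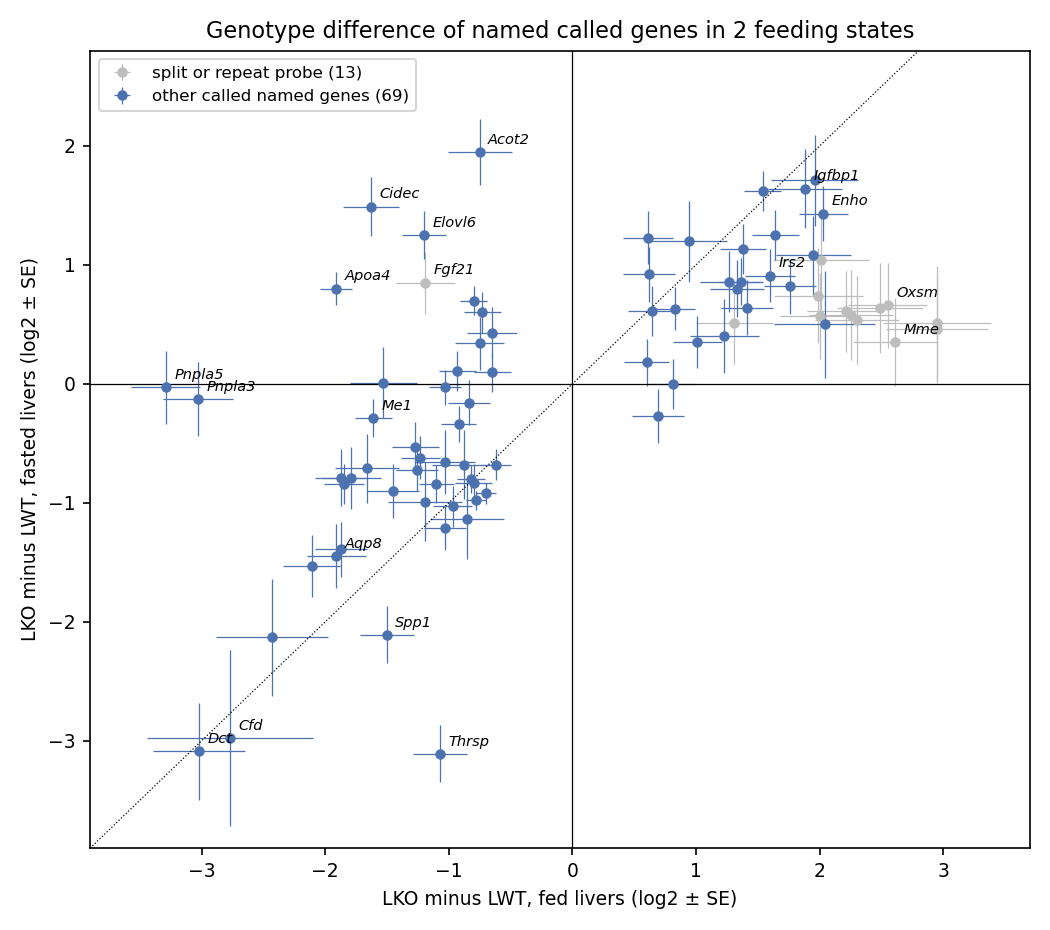
Difference between LKO and LWT livers (log2 ± SE) in fed (horizontal) and fasted (vertical) mice for the 82 named genes called in fed livers, with the dotted line marking equal differences. Grey points rest on split or repeat probes. Cidec, Elovl6, Apoa4 and Acot2 lie in the upper left, lower in fed and higher in fasted LKO livers, while Dct and Cfd lie close to the dotted line at the lower left.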

How the data were processed

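Liver RNA of 24 mice was read on 1-colour Agilent mouse arrays, 1 array per mouse, and scanned with Agilent Feature Extraction 10.10.1.1. The deposited table holds log2 values for 32595 probes, which the authors made from median signals by filtering, correcting for washing bath and quantile normalization. The filter was not given in the sources used here. The scanner files hold linear intensity as deposited and were used for probe names, background flags and alternatives. Their coordinates are mm9.

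Probes were named through RefSeq (GRCm38.p6) by accession (22085) or symbol (4780), and a gene was its probe with the highest mean over 24 arrays. limma 3.58.1 (R 4.3.3) fitted group means with slide, array weights and empirical Bayes, with Benjamini-Hochberg adjustment over all probes. Each mouse is a replicate. On simulated data for the fed comparison (32595 probes), 97 of 100 changes of 1 log2 unit and 99 of 100 of 2 were called, with 1 unchanged probe. The simulated noise was independent between probes and equally wide on all arrays, which the real arrays are not. The count of unchanged probes called therefore does not measure false calls in the real data.

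Members and gene lists were chosen with earlier results of these data known. Named genes were Pik3ca, the 12 largest increases and decreases without overlap whose higher group was well above background on all 6 arrays, up to 4 called members of each list, all members of 3 lists but 1 not reported here, and the 3 largest unannotated changes each way. A few more called list members, and the genes of the list without split or repeat probes, were named after their values were seen. Where no array of the dimmer group was well above background, a fold is a bound, from the lowest signal among probes well above background on each array. Sequences are from RefSeq and the array files.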

Additional observations from a re-analysis of the deposited data

Results flagged for a closer look

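For 42 named genes the genotype difference in fed livers differed from that in fasted livers (limma interaction, adjusted p at most 0.05, fed minus fasted). It was negative for Apoa4 (-2.71), Cidec (-3.12), Pnpla5 (-3.26) and Pnpla3 (-2.90), both near background in fasted livers, Acot2 (-2.70), Elovl6 (-2.45), Fgf21 (-2.04), Pdk4 (-1.68), G0s2 (-1.55), Elovl5 (-1.50), Acaa1b (-1.32), Me1 (-1.32), Acacb (-1.09), Acot4 (-1.08), Gm30692 (-1.08), Gpam (-1.04), Dntt (-1.01), Fasn (-1.0), Acaca (-0.77), Rsad2 (-0.74), Mid1ip1 (-0.73), Fads2 (-0.61), Mttp (-0.52) and Grb14 (-0.45). It was positive for Thrsp (2.04), Klf15 (0.81), Foxo1 (0.66), Irs1 (0.65), Pik3ca (0.60), Pik3r1 (0.58), Foxo3 (0.49), Eif4ebp2 (0.46), Insr (0.45) and Gsk3b (0.31). A positive value need not mean a rise in fed livers. Klf15, Foxo1, Irs1 and Pik3r1 were at 0.15, 0.04, 0.22 and 0.10 in fed and at -0.66, -0.63, -0.43 and -0.47 in fasted livers. Pik3ca and Insr were at 0.58 and 0.30 in fed and at -0.02 and -0.14 in fasted livers. On split probes the fed minus fasted value was 2.50 for Gm21996, 2.44 for Gm20736, 2.26 for Mme, 1.90 for Oxsm, 1.85 for Gm10375, 1.76 for Gm3264, 1.66 for Pramel48 and 1.61 for 4930557B15Rik. These values are inexact for Gm21996, Gm10375, Gm3264, Pramel48 and 4930557B15Rik, which were well above background on 0 LWT fed arrays, and for Gm20736, which was on 1. Without LKO fasted replicates 1 and 2 it was 3.21 for Mme and 2.81 for Oxsm, and 51 named genes passed.

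In 24 of 268 groups of 6 fed arrays 1 array lay far from the others by Dixon's criterion, which chance meets in about 1 in 20 groups. LWT fed replicate 3, the array of lowest weight, was such an array for Mt2 (13.67), Slc25a1 (13.88), Pgd (12.09), Rictor (7.95), Oxsm (10.60) and Grb14 (12.02). LWT fed replicate 4 was one for Gm20736 (6.55), Gm21996 (5.62), BC061237 (6.02) and Scd1 (16.99), replicate 2 for Gm10375 (5.23), Fitm1 (9.64) and Ppp1r3g (6.92), and replicate 6 for Foxo1 (11.92) and Apoc3 (17.95). LKO fed replicate 2 was one for Oxsm (13.01), Gm3264 (7.31), BC061237 (6.89), Fitm1 (7.81) and Igfbp2 (16.63), replicate 3 for Elovl6 (13.43) and Pik3cg (7.07), replicate 1 for Orm3 (9.64) and replicate 6 for Igfbp1 (14.24).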

How the results depend on the processing

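Of the 82 named called genes, 64 kept direction and call under all 24 other settings tried, which include the omission of each fed array. Over 1968 pairs of gene and setting, 99 lost the call and 0 reversed. Without array weights Got1, Ppp1r3g, Acot2, Acot4, Lpl, Socs3, Susd4, Mt2, Mt1, Orm3, Rsad2 and Lyve1 lost their calls, and without the slide term Acot2, Lpl and Orm3 did. Counts moved by over 1.5 times with Agilent's processed signal scaled to the 75th percentile (1082 genes called, 723 higher, 359 lower, 592 unannotated probes) and with the adjusted p alone (3103, 1411, 1692 and 1345, with 5 FOXO1-induced genes higher). Leaving out split and repeat probes, a setting chosen after seeing the data, gave 383 genes called, 162 higher, and 97 unannotated probes, by fewer probes counted. Leaving out each fed array gave 565 to 634 genes called, 343 to 389 higher, 218 to 245 lower, 244 to 287 unannotated probes, 13 to 15 lipogenesis genes lower, 2 to 4 FOXO1-induced genes higher and 36 to 45 named genes that differed between states. Pik3ca ran from 0.51 to 0.65 and passed the fold threshold with fed arrays alone (0.59), no weights (0.62), processed signal (0.60), the replicate block (0.61) and slide row added (0.59). It also passed without LKO fed replicate 2 (0.61) or 4 (0.62) and without LWT fed replicate 5 (0.62) or 6 (0.65). The cause was not tested.

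Some uncalled values changed sign, all of them near 0 except Bcl6 (-0.43, SE 0.50). With all probes of a gene averaged these were Gsk3b (-0.07), Grb14 (0.04), Trib1 (-0.06), Bcl6 (0.06) and Rptor (0.07). Apoc3 was 0.09 with processed signal. Without weights Phlpp2 was -0.01, Tsc1 0.04 and Rptor 0.01, and without the slide term or with it as a random block Rptor was 0.01. With single arrays left out Rptor ran from -0.04 to 0.04, Tsc1 from -0.07 to 0.03, Foxo1 from -0.04 to 0.16, Bcl6 from -0.92 to 0.02 and Phlpp2 from 0.00 to 0.09.

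Samples of the same number share only that number. Deviations of same-numbered LWT and LKO fed arrays correlated at 0.12, 0.14, -0.06, 0.14, -0.10 and -0.07, and 1 of 6 matched its own number best. With the replicate block 618 genes were called (374 higher, 244 lower), and Got1 (0.55), Mt1 (1.06) and Orm3 (0.66) lost their calls. The number of arrays limits precision, and dim probes give only bounds.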
